A study of Mus musculus with 12 samples.

Results

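The 6 genes described here set the electrical excitability of the muscle fibre membrane. They were followed in bulk RNA of the tibialis anterior, a fast hindlimb muscle, and are the sodium channel genes Scn4a and Scn4b, the chloride channel gene Clcn1, and the sodium pump genes Atp1b1, Atp1b2 and Fxyd1. All were taken by symbol from a table of 24421 entries, where each of the 6 occurred once, and all 6 passed the filter on low counts that left 13937 genes for testing. The samples were 6 C57Bl/6 males (WT) and 6 males of the mdx/mTR genotype, each aged 4 months, with no treatment named in either group. The mdx allele disrupts dystrophin (Dmd), and mTR is the mouse telomerase RNA gene. The labels give no mTR zygosity, no telomerase generation and no background strain for mdx/mTR. Neither group analysed here carries only one of the mdx and mTR alleles, so what each contributes cannot be told apart.

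A muscle fibre fires when voltage-gated sodium channels open along its surface and transverse tubules. In adult skeletal muscle the pore is mostly Nav1.4, the product of Scn4a, and Scn4b encodes a beta subunit that is bound to the pore by a disulphide bridge and alters its gating. The chloride channel ClC-1, from Clcn1, carries most of the resting conductance and returns the membrane to rest, and its loss causes myotonia, a delayed relaxation. The sodium pump (Na,K-ATPase) restores the ion gradients after firing. It joins a catalytic alpha subunit to a beta subunit that brings it to the membrane, and Fxyd1 encodes phospholemman, a small protein that lowers its activity until it is phosphorylated. Of the beta subunits, that of Atp1b1 is the more abundant in oxidative fibres and that of Atp1b2 in glycolytic fibres.

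The promoters of the 3 channel genes are shown because these were the members that fell in mdx/mTR, described after the sequences. Each is the window from 250 bases before to 50 bases after the transcript start in RefSeq (GRCm38.p6), written 5′ to 3′ on the strand of the gene, with capitals on matches to the E-box CANNTG, the core bound by myogenic factors such as MyoD, and to the MEF2 motif, bound by the MEF2 factors of muscle. Scn4a is at chr11:106349341-106349640 on the minus strand, Scn4b at chr9:45138374-45138673 on the plus strand and Clcn1 at chr6:42286435-42286734 on the plus strand.
Scn4a: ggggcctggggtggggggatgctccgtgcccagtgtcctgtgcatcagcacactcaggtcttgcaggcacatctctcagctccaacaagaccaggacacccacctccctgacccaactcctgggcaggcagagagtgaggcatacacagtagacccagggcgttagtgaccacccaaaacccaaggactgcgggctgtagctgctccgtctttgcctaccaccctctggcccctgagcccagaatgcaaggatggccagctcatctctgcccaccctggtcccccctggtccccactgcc
Scn4b: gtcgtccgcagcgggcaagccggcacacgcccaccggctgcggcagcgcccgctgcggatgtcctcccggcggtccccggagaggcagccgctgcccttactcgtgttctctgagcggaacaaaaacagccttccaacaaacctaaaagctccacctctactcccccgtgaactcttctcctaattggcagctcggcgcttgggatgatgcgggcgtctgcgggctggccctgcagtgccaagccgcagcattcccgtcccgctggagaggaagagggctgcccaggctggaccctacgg
Clcn1: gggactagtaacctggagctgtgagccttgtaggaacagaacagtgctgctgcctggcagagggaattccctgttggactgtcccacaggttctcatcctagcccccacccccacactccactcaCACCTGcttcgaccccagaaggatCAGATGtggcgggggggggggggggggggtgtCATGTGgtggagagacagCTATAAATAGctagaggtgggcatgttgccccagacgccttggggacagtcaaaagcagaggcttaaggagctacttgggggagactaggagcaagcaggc
The Clcn1 window held 3 E-boxes, CACCTG with its first base at position -125, CAGATG at -101 and CATGTG at -69 relative to the start, and 1 MEF2 match, CTATAAATAG, at -51. None of these matches overlapped another. The windows of Scn4a and Scn4b held no match to either motif on either strand. Over 32544 distinct RefSeq promoter windows of 300 bases, 72.3% held CANNTG and 0.559% held the MEF2 motif. RefSeq windows were matched for 5 of the 6 genes, without Atp1b2, and those of Atp1b1 and Fxyd1 also held neither motif. Of the other motifs searched on both strands, CATTCC (in 14.6% of windows) occurred once in Scn4b, GGGCGG (in 35.9%) 2 times in Atp1b1, and CAGCTG (in 16.4%), which is itself an E-box, in none of the 5. The Scn4a window lies inside the longer GENCODE M21 gene model, whose start is further upstream, and a match is a description of these letters and not a binding site.

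Library totals ran from 36903560 to 40981012 counts in WT, against 35136327 to 60330410 in mdx/mTR, so each of the 6 genes was read between 6361 and 56263 times per library. Levels are CPM, counts scaled to the same fixed library size, after TMM scaling (trimmed mean of M-values). Dmd, which checks the labels, was at 228 to 244 CPM in WT against 35.2 to 56.4 CPM in mdx/mTR. The labels present the 12 samples as separate ones without saying more of their origin, so p-values measure the spread between these samples. Of all genes tested, 48.3% differed between the groups at an adjusted p below 0.05 in edgeR's quasi-likelihood test, 25.0% higher and 23.4% lower in mdx/mTR. With library totals in place of TMM the split was 40.2% higher and 11.2% lower (51.3% in all), and the median log2 change over all genes moved up by 0.16.

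The 3 channel genes fell in mdx/mTR and the 3 pump genes did not pass the test. Thus 3 of the 6 genes were called, against 48.3% of all genes, a share near the background, and all 3 calls were lower. The groups did not overlap for the same 3 genes. Over all genes tested, 25.2% did not overlap, and 12.6% did not overlap and were lower. At the stricter adjusted p of 0.01, the share of all genes called was 33.2%. The median log2 fold change of the 6 was -0.22, against 0.01 for all genes.

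Scn4a lost the most. Its WT libraries lay between 858 and 1045 CPM with a median of 967 CPM, and its mdx/mTR libraries between 442 and 712 CPM with a median of 594 CPM. Every mdx/mTR library was below every WT library, and mdx/mTR 2 was the lowest. The mean fell from 965 ± 62.6 to 591 ± 88.7 CPM (SD, n = 6 each), to 61.2% of WT, a log2 fold change of -0.71 ± 0.09 (SE; edgeR adjusted p 4.77e-05). Of all genes tested, 3.57% had a lower log2 fold change.

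Scn4b, the beta subunit gene, was expressed at 954 to 1114 CPM in WT with a median of 1066 CPM, and at 583 to 921 CPM in mdx/mTR with a median of 818 CPM. Its groups did not overlap, though the highest mdx/mTR library, number 6, came within 33.2 CPM of the lowest WT library. The mean fell from 1049.9 ± 57.3 to 769 ± 133 CPM, to 73.2% of WT (log2 fold change -0.45 ± 0.10 SE, edgeR adjusted p 0.00263).

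Clcn1 was expressed at 220.3 to 261 CPM in WT with a median of 241 CPM, and at 147 to 212 CPM in mdx/mTR with a median of 176 CPM. All 6 mdx/mTR libraries were below all 6 WT libraries. The mean fell from 243 ± 16.1 to 178 ± 25.998 CPM, to 73.2% of WT (log2 fold change -0.45 ± 0.09 SE, edgeR adjusted p 8.78e-04). In GENCODE M21, 8.20% of the exon bases of Clcn1 overlap exons of Fam131b on the opposite strand. Strand handling is not given in the sources used here, so reads from that stretch cannot be told apart. Fam131b itself was at 19.6 ± 1.65 CPM in WT against 15.04 ± 2.65 CPM in mdx/mTR.

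**Figure D1:**
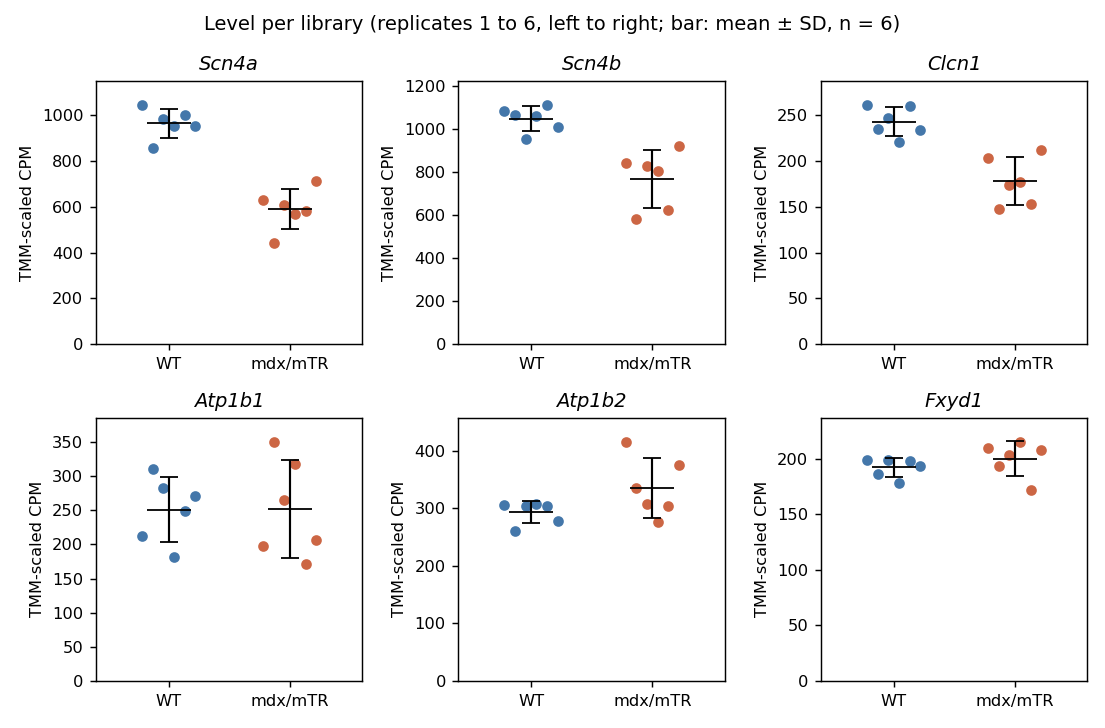
Level of each of the 6 genes in every library, in TMM-scaled CPM on axes that start at 0; points are libraries 1 to 6 of WT (blue) and mdx/mTR (orange), bars the mean ± SD. The WT and mdx/mTR points of Scn4a, Scn4b and Clcn1 do not overlap, while those of Atp1b1, Atp1b2 and Fxyd1 do.

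Atp1b1 did not pass the test and was the most variable of the 6 genes. It ranged from 181 to 309.9 CPM in WT with a median of 260.0 CPM, and from 171 to 351 CPM in mdx/mTR with a median of 236 CPM. The mdx/mTR libraries reached both below and above the WT range. The means were 250.9 ± 47.6 and 252 ± 71.9 CPM, and the log2 fold change was 0.00 ± 0.18 SE with a 95% interval from -0.37 to 0.38 (edgeR adjusted p 0.986). The interval leaves room for changes of either sign, and the sign depended on the scaling and on single libraries: it was negative with median-of-ratios scaling and positive with the others. Opposite-strand exons of Nme7 cover 18.7% of the exon bases of Atp1b1, and Nme7 was at 1.23 ± 0.190 CPM in WT against 1.54 ± 0.145 CPM in mdx/mTR.

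Atp1b2 was expressed at 261 to 308 CPM in WT with a median of 304 CPM, and at 276 to 416 CPM in mdx/mTR with a median of 321 CPM. The mdx/mTR libraries 1, 2 and 6 lay above all WT libraries, and mdx/mTR 3, 4 and 5 lay within the WT range. The means were 293 ± 19.4 and 335 ± 51.8 CPM, with a log2 fold change of 0.19 ± 0.09 SE and a 95% interval from 0.000533 to 0.39. The unadjusted p was 0.0495 and the edgeR adjusted p 0.0906. Scaled by library totals alone, Atp1b2 passed as higher, at a log2 fold change of 0.35 (edgeR adjusted p 0.00189).

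Fxyd1, the phospholemman gene, was the least variable, at 179 to 199.5 CPM in WT with a median of 196 CPM, and at 172 to 216 CPM in mdx/mTR with a median of 206 CPM. The ranges overlapped and mdx/mTR 5 was the lowest of all 12 libraries. The means were 192 ± 8.36 and 200.4 ± 15.7 CPM, with a log2 fold change of 0.06 ± 0.06 SE and a 95% interval from -0.06 to 0.18 (edgeR adjusted p 0.417). With library totals alone it passed as higher, at 0.21 (edgeR adjusted p 7.48e-04).

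Scaling moved all 6 genes together. The TMM factors did not overlap between groups, at 0.929 to 0.971 in WT against 0.988 to 1.16 in mdx/mTR. Relative to the median of all genes, Scn4a stood at -0.72 with TMM and -0.72 with library totals alone, and Scn4b at -0.46 and -0.47. Clcn1 stood at -0.46 and -0.47, Atp1b2 at 0.18 and 0.18, Fxyd1 at 0.04 and 0.04, and Atp1b1 at -0.01 and -0.01. The calls of the 3 channel genes as lower held under all 5 scalings in the plot of fold change by scaling, which include upper quartile (47.7% of all genes called) and median-of-ratios scaling (48.4%).

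**Figure D2:**
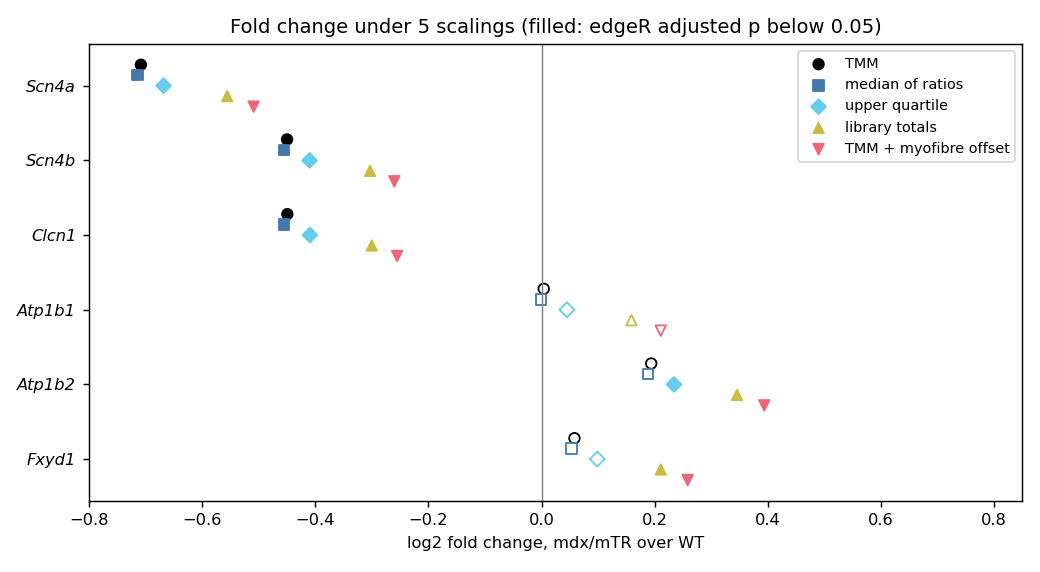
Log2 fold change for the 6 genes, positive where mdx/mTR was higher, under 5 scalings of the libraries; filled symbols have an edgeR adjusted p below 0.05. Scn4a, Scn4b and Clcn1 are negative and filled under all 5, while Atp1b2 and Fxyd1 are filled only under scalings that raise the median of all genes.

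Fibre RNA in each library was followed through a list of 19 myofibre markers, among them Ckm, Acta1 and Ryr1. Of the 19, 2 were higher and 8 lower in mdx/mTR, against 25.0% and 23.4% of all genes, with a median log2 fold change of -0.23. The mdx/mTR means of single markers ran from 67.6% of the WT mean for Mb to 134% for Mylpf. Ckm was at 87.1%, Acta1 at 98.6% and Ryr1 at 69.9%, beside 61.2% for Scn4a and 73.2% for both Scn4b and Clcn1. The summed level of the 19 markers was 207302 to 226303 CPM in WT, against 164254 to 219845 CPM in mdx/mTR. In bulk tissue, fewer fibres, less RNA per fibre and changes in the markers themselves cannot be told apart. Fits with an added offset for these markers gave log2 fold changes of -0.51 for Scn4a (edgeR adjusted p 2.44e-04), -0.26 for Scn4b (adjusted p 0.00646) and -0.26 for Clcn1 (adjusted p 0.00378), all still called, where 48.6% of all genes were called, 40.9% higher and 7.68% lower. With that offset the median of all genes was 0.22, Atp1b2 passed at 0.39 (edgeR adjusted p 0.00121) and Fxyd1 at 0.26 (adjusted p 0.00126).

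Markers of other cells moved as well, where 25.0% of all genes tested were higher and 23.4% lower. All 9 macrophage markers were higher in mdx/mTR, with sums of 44.6 to 76.8 CPM in WT, against 114 to 377 CPM in mdx/mTR, and 6 of 7 fibroblast markers were higher, with sums of 1109 to 2114 and 2784 to 5718 CPM. All 7 markers of immature or regenerating fibres, such as Myh3 and Chrng, were higher, with sums of 207 to 483 and 430.3 to 1416 CPM. Of 8 fast fibre markers, 5 of which are also on the myofibre list, 1 was higher and 2 lower, with sums of 124695 to 148068 and 93153 to 130902 CPM. Of 7 slow fibre markers 5 were higher and 1 lower, with sums of 114 to 238 and 144 to 348 CPM. Of 6 endothelial markers 4 were lower and none higher, with a median log2 fold change of -0.50 and sums of 499.9 to 636 CPM in WT against 378 to 477 CPM in mdx/mTR, without overlap. Of 6 smooth muscle and pericyte markers 1 was higher and 3 lower, with sums of 335 to 463 and 342 to 403 CPM. None of the markers in these 7 lists was at 0, and their part in the change of the channel genes was not tested.

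The 3 channel genes shared their extremes in mdx/mTR but not in WT, where the lowest library was 2 for Scn4a, 3 for Scn4b and 4 for Clcn1. In mdx/mTR, library 2 was the lowest and library 6 the highest for Scn4a, Scn4b and Clcn1 alike, and library 1 came next below library 6. Library 2 had 45.8% of the WT mean of Scn4a, 55.5% of that of Scn4b and 60.7% of that of Clcn1, and library 6 had 73.8%, 87.7% and 87.3%. Libraries 2 and 5, which had the lowest myofibre sums (180319 and 164254 CPM) and the highest macrophage sums (234 and 377 CPM), were the 2 lowest for Scn4b and Clcn1. Without both of them, the log2 fold change was -0.62 for Scn4a (edgeR adjusted p 3.12e-05), -0.31 for Scn4b (adjusted p 0.00104) and -0.34 for Clcn1 (adjusted p 0.00179). In that fit 40.3% of all genes were called.

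**Figure D3:**
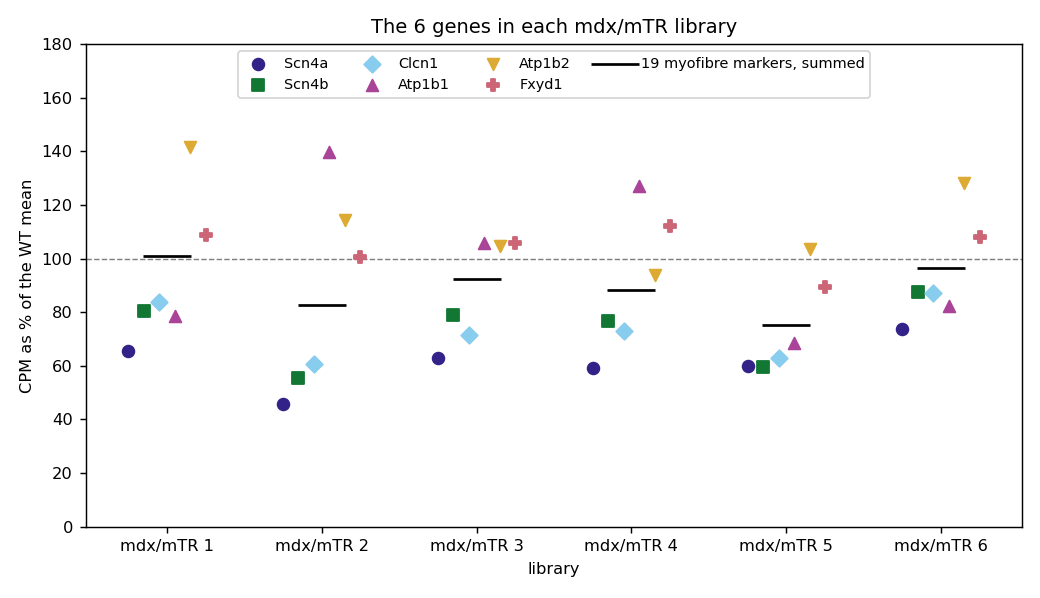
The 6 genes in each mdx/mTR library, as a percentage of the mean of the 6 WT libraries (dashed line at 100%); black bars give the summed level of the 19 myofibre markers on the same scale. Scn4a, Scn4b and Clcn1 lie below both the dashed line and the black bar in all 6 libraries, Scn4a lowest at 45.8% in mdx/mTR 2. The bar is a sum over markers whose own mdx/mTR means ran from 67.6% (Mb) to 134% (Mylpf) of the WT mean.

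The highest libraries for one pump beta subunit gene were mostly not the highest for the other. In WT, library 2 had the highest Atp1b1 (309.9 CPM) and the lowest Atp1b2 (261 CPM), and library 4 the lowest Atp1b1 (181 CPM) and the highest Atp1b2 (308 CPM). In mdx/mTR, libraries 2 and 4 had the highest Atp1b1 (351 and 318 CPM), and libraries 1 and 6 the highest Atp1b2 (416 and 375 CPM) with Atp1b1 at 197 and 207 CPM. WT library 2 also had the highest sum of slow fibre markers in WT, 238 CPM against 114 to 141 CPM. In mdx/mTR that sum was highest in library 5, at 348 CPM, where Atp1b1 was lowest at 171 CPM. The part of fibre type in these differences was not tested.

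Ratios between 2 genes of a library, with 0.5 CPM added to each value, depend little on how libraries are scaled, and 6 were compared with exact two-sided permutation tests, with Benjamini-Hochberg adjustment over the 6. Of these, 3 are reported. The smallest p that 6 against 6 samples allow is 0.00216. The ratio of Scn4b to Scn4a was 0.971 to 1.24 in WT (median 1.09) and 1.08 to 1.41 in mdx/mTR (median 1.33). It was above all WT values in 5 of the 6 mdx/mTR libraries, a difference of 0.25 on the log2 scale (exact permutation p 0.00866, adjusted p 0.0173). The message of the pore thus fell by more than that of its beta subunit.

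The ratio of Clcn1 to Scn4a likewise rose, from 0.232 to 0.274 in WT (median 0.251) to 0.265 to 0.334 in mdx/mTR (median 0.305). Again 5 of 6 mdx/mTR libraries were above all WT values, with a difference of 0.26 on the log2 scale (exact permutation p 0.00433, adjusted p 0.0130). Both ratios have Scn4a as denominator and are not independent of each other. In both, mdx/mTR 5 was the library inside the WT range.

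The ratio of Atp1b1 to Atp1b2 was 0.589 to 1.19 in WT against 0.475 to 1.15 in mdx/mTR, a difference of -0.20 that did not pass (exact permutation p 0.450, adjusted p 0.450).

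**Figure D4:**
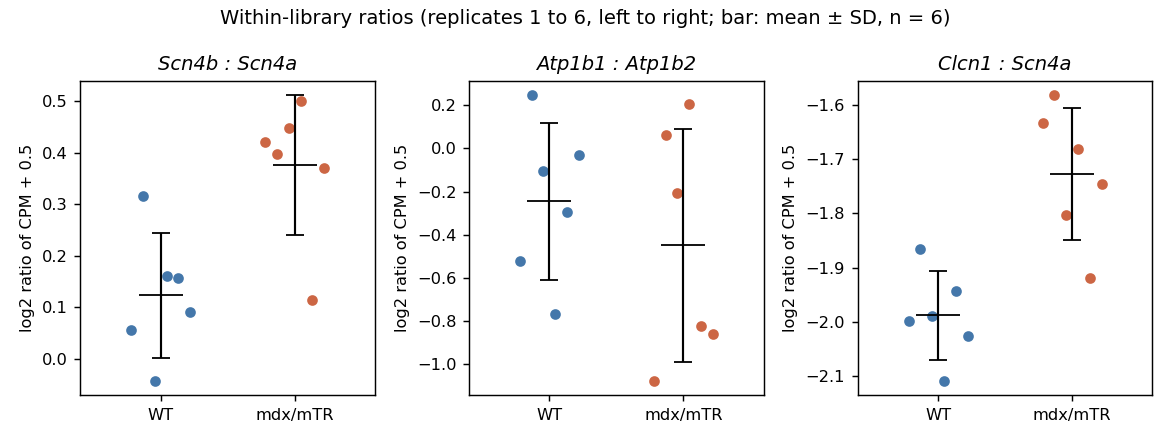
The 3 reported ratios between 2 genes of a library, as log2 of (CPM + 0.5) over (CPM + 0.5), for WT (blue) and mdx/mTR (orange); points are libraries 1 to 6, bars the mean ± SD. For Scn4b to Scn4a and Clcn1 to Scn4a 5 of 6 mdx/mTR points are above all WT points, while the groups overlap for Atp1b1 to Atp1b2.

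To set the levels of the 6 genes side by side, CPM was divided by the length of the longest coding transcript in GENCODE M21. In WT, Fxyd1 was the highest at 310.5 ± 13.5 CPM per kilobase, followed by Scn4b at 211 ± 11.5, Scn4a at 146 ± 9.48, Atp1b2 at 103 ± 6.82, Atp1b1 at 97.3 ± 18.5 and Clcn1 at 68.5 ± 4.54. The ranges of Atp1b1 overlapped those of both Atp1b2 and Clcn1, and the other neighbours did not overlap. In mdx/mTR, Scn4a at 89.5 ± 13.4 CPM per kilobase came after Atp1b2 (118 ± 18.2) and Atp1b1 (97.5 ± 27.9), and the ranges of these 3 genes overlapped. That order depended on the length used. Per kilobase of all exons together, the mdx/mTR means were 83.9 CPM for Scn4a, 82.1 for Atp1b2 and 81.7 for Atp1b1. Fxyd1 has a short coding transcript beside longer annotated ones: per kilobase of all its exons together it was at 88.1 CPM in WT, below Scn4b (211) and Scn4a (137).

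The rest of each family was examined through lists of related genes. Together the 6 lists held 82 tested genes, of which 20 were higher and 18 lower, or 46.3%, near the 48.3% of all genes. Of 8 tested relatives of the sodium channel members, 6 rose and none fell, against 25.0% of all genes that rose, and the list's median log2 fold change was 0.68, against 0.01 for all genes. Scn7a, a salt-sensing channel relative, rose from 10.8 ± 1.31 to 17.8 ± 2.69 CPM (log2 fold change 0.73, edgeR adjusted p 1.19e-04), without overlap. Scn3a, a channel of the developing nervous system, rose from 0.955 ± 0.217 to 1.79 ± 0.331 CPM (0.90, adjusted p 9.39e-04).

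Of 7 Schwann cell markers 5 were lower, with sums of 74.2 to 91.2 CPM in WT, against 53.1 to 69.9 CPM in mdx/mTR, and none was at 0. Of 15 tested sodium channel partners, the scaffolds and modifiers of the channel, 3 rose and 2 fell, with a median of 0.05. Over all genes, 25.0% rose and 23.4% fell. Sptbn1, a beta spectrin, fell from 341 ± 30.6 to 265 ± 8.37 CPM (-0.36, edgeR adjusted p 2.41e-04), and Fgf11, an intracellular fibroblast growth factor homologue that binds sodium channels, rose from 8.29 ± 2.42 to 14.8 ± 2.09 CPM (0.84, adjusted p 6.73e-04). Nrcam, a cell adhesion gene, rose from 0.366 ± 0.188 to 1.18 ± 0.152 CPM (1.67, edgeR adjusted p 2.19e-04). Nedd4, a ubiquitin ligase gene with the highest mean CPM of that list without correction for length, stood at 691 ± 18.8 and 722 ± 35.7 CPM (edgeR adjusted p 0.295). With library totals alone 8 partners were higher and 1 lower, and with the myofibre offset 8 were higher and none lower, Sptbn1 then being at -0.15 (edgeR adjusted p 0.144).

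The chloride channel list, which holds anoctamin (Ano) and Lrrc8 genes beside those of the Clcn family, had 15 tested genes. Of these, 2 rose and 3 fell, against 25.0% and 23.4% of all genes. Their median log2 fold change was -0.03. The 3 that fell act in internal membranes: Clcn4-2, an endosomal exchanger, from 105 ± 4.18 to 76.8 ± 3.97 CPM (-0.44, edgeR adjusted p 6.33e-06), Ostm1, the partner of the lysosomal exchanger ClC-7, from 49.7 ± 4.04 to 32.8 ± 2.26 CPM (-0.60, adjusted p 7.15e-06), and Clcn3 from 77.0 ± 3.76 to 61.7 ± 8.79 CPM (-0.32, adjusted p 0.00573). Clcn5, another endosomal exchanger, rose from 1.61 ± 0.285 to 3.44 ± 1.58 CPM (1.09, edgeR adjusted p 0.00464). Ano5, which had the highest mean CPM of the list without correction for length, is a gene of recessive muscular dystrophy and stood at 395 ± 21.4 and 396 ± 29.8 CPM (edgeR adjusted p 0.971). The list's median turned positive when libraries were scaled by upper quartiles (0.01), by totals alone (0.13) or with the myofibre offset (0.18). With that offset 4 were higher and 2 lower, and Clcn3 did not pass (-0.13, edgeR adjusted p 0.117).

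Of 12 genes known to act on Clcn1 splicing or on the channel itself, 1 rose and 4 fell. Over all genes, 25.0% rose and 23.4% fell. Mbnl1 and Mbnl2 encode splicing factors whose loss of function in myotonic dystrophy leads to faulty Clcn1 messages. Mbnl1 was lower at 487 ± 62.9 CPM against 569 ± 28.2 CPM in WT (log2 fold change -0.23, edgeR adjusted p 0.0308), and Mbnl2 at 276 ± 23.8 against 332 ± 12.4 CPM (-0.27, adjusted p 0.00224). Celf1, which often acts against the Mbnl factors, fell from 148 ± 6.75 to 120 ± 4.86 CPM (-0.30, adjusted p 9.51e-05), and Prkca, a protein kinase C whose activity closes ClC-1, from 149 ± 8.36 to 121 ± 13.7 CPM (-0.30, adjusted p 0.00421). These calls varied with how libraries were scaled. By totals alone, Mbnl2, Celf1 and Prkca were still called lower (edgeR adjusted p 0.0493, 0.0240 and 0.0346) and Mbnl1 was not (adjusted p 0.324), while 6 of the 12 were higher. With the myofibre offset none of the 4 passed (edgeR adjusted p 0.139 to 0.727), and 6 of the 12 were higher and none lower. Splicing itself was not measured by gene counts.

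Of the 11 genes tested on the pump list 4 rose and none fell, against 25.0% and 23.4% of all genes. Their median log2 fold change was 0.25. Atp1b3, another beta subunit gene, rose from 30.7 ± 1.70 to 36.5 ± 4.39 CPM (0.25, edgeR adjusted p 0.0115).

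In the FXYD family, Fxyd5, known as dysadherin and expressed outside muscle fibres, rose from 6.26 ± 1.25 to 13.7 ± 5.20 CPM (log2 fold change 1.13, edgeR adjusted p 5.90e-04), without overlap and with its highest value in mdx/mTR 5, the library with the highest macrophage and fibroblast sums. Fxyd6 rose from 49.4 ± 12.8 to 85.1 ± 12.9 CPM (0.78, edgeR adjusted p 7.10e-04), with overlapping groups. Whether other cells account for these levels was not tested.

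**Figure D5:**
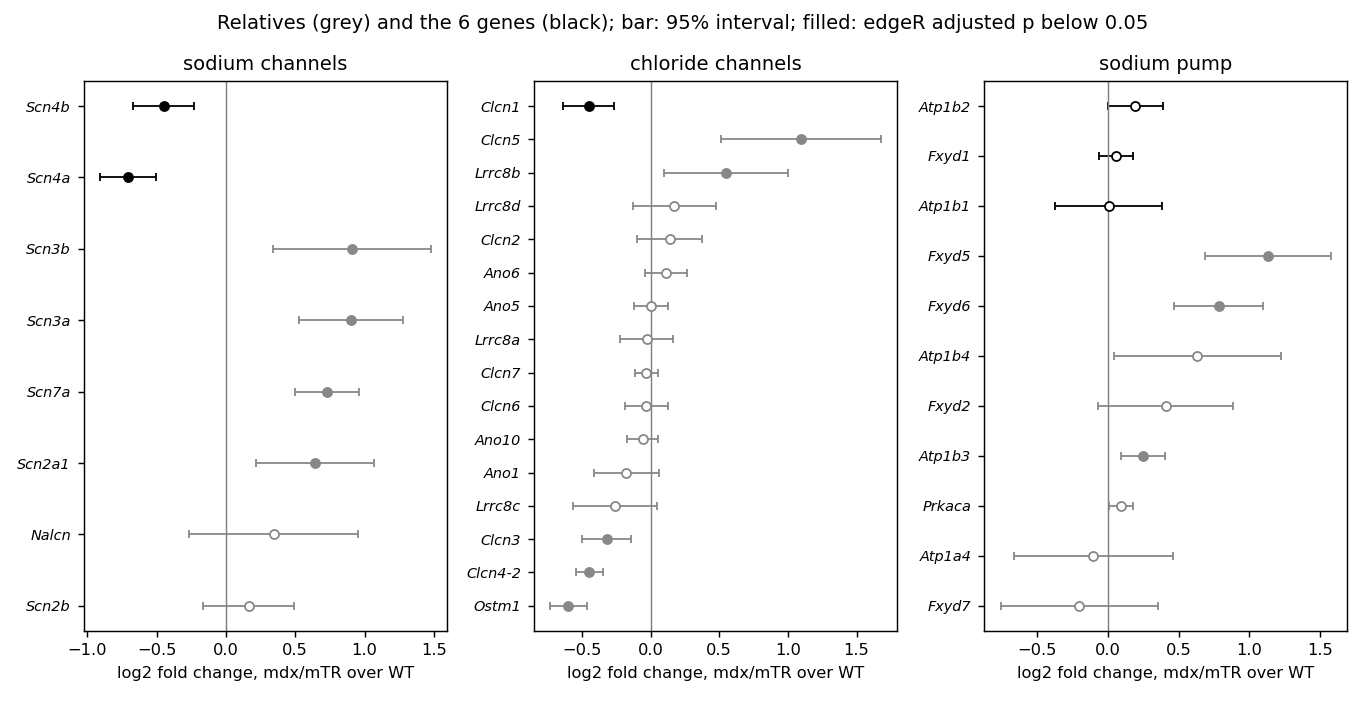
Log2 fold change, positive where mdx/mTR was higher, and its 95% interval for the 6 genes (black) and those of their tested relatives that are reported (grey), for sodium channels, chloride channels and the sodium pump; filled points have an edgeR adjusted p below 0.05. Scn4a (-0.71) and Scn4b (-0.45) lie left of 0 while all filled relatives of theirs that are drawn lie to the right, and no grey point of the pump list is filled to the left.

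Genes with a pattern most like each member were sought among 9509 genes with a mean of at least 5 CPM, by Pearson correlation of log2(CPM + 0.5) over the 12 libraries. All values share the same libraries and scaling, and the correlation is given as a description. For Scn4a the closest were Tab2 (r 0.990) and Kmt2c (0.986), for Scn4b Zcrb1 (0.983) and Svip (0.974), and for Clcn1 Camk2a (0.982) and Mapk9 (0.980). All 6 of these genes were lower in mdx/mTR, which choosing them by levels over both groups largely fixes in advance. For Atp1b1 they were Gbe1 (0.907) and Ptpn14 (0.899), for Fxyd1 Gmpr (0.939) and Nfu1 (0.874), and for Atp1b2 Casq1 (0.913), the calcium store protein of fast fibres, and Rnf123 (0.904).

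The same search on deviations from the group means, which removes the difference between WT and mdx/mTR, gave other genes. Closest to Clcn1 was Fam131b (r 0.964), the gene whose exons overlap it, followed by Speg (0.955). Closest to Scn4a were Anapc5 (0.955) and Eif4ebp2 (0.948), and to Scn4b Mmab (0.957) and again Zcrb1 (0.957). For the pump they were Gadd45gip1 (0.945) and Ptges2 (0.942) for Atp1b1, Sema4d (0.906) and Hus1 (0.903) for Atp1b2, and Rfesd (0.962) and Kif13a (0.954) for Fxyd1. Among the members, the deviations of Scn4a, Scn4b and Clcn1 had pairwise r of 0.763 to 0.840. Clcn1 and Fxyd1 had 0.728, Scn4b and Fxyd1 0.610 and Clcn1 and Atp1b2 0.548. Negative values were those of Atp1b1 with Scn4a (-0.617), Scn4b (-0.24), Clcn1 (-0.23) and Atp1b2 (-0.474).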

How the data were processed

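The deposited files are one table of raw counts, a whole number for each gene symbol and sample, and the authors' own comparison under DESeq2 column names. STAR, FastQC, DESeq2 and the build mm10 are named in the submitters' processing notes. The counter, annotation and strand setting are not given in the sources used here. The deposited comparison also holds a mean normalised signal, p-values, a test score and log2 fold changes with standard errors, per the file headers. All 12 count columns matched a sample, and 0 did not.

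Counts were tested with edgeR 4.0.16 (R 4.3.3): filterByExpr, TMM scaling, a quasi-likelihood fit with group as the only term over all 13937 genes kept, and Benjamini-Hochberg adjustment over them at 0.05. The standard error is the log2 fold change over the square root of F. Ratios used log2(CPM + 0.5) and scipy 1.17.1. DESeq2 1.42.0, limma 3.58.1 (voom), other scalings and filters, a replicate block and leaving out samples were alternatives. The fit was also run on simulated data, with 50 of 13937 genes changed at each of the folds 0.5, 0.667, 1.5 and 2. It recovered 76% to 94% of them by fold, with 16 false calls among 181. Far fewer genes changed there than were called in the data, so that run does not test the scaling. Replicates differed by more than sampling noise (chi-square per degree of freedom 9.32 to 128). Intervals cover counting error and spread between samples only. Gene models and shared sequence came from GENCODE M21 (GRCm38). No more than 0.0763% of the 50-base stretches of a member's longest coding transcript occur in another gene.

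The members, lists and ratios were chosen with earlier results of these data known. Genes named are the 6 members, in each list the 3 smallest p-values and the highest level, the genes of the reported ratios, Dmd, and the 2 closest in pattern per member. Clcn3, Atp1b3, Slc8a3 and the genes overlapping members, Fam131b and Nme7, were named after their values were seen. Some genes that this rule picks, and 3 ratios, are not reported here, though counts over lists include every tested gene.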

Additional observations from a re-analysis of the deposited data

Results flagged for a closer look

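Within each group of 6 libraries, the gap between the highest or lowest value and its neighbour was divided by the range of the group, and a share above Dixon's critical value for 6 samples was taken as standing apart. Of 76 such groups of values 6 exceeded it, where chance gives about 1 in 20, or 3.8. Among the members' own levels none did. The ratio of Scn4b to Scn4a in mdx/mTR 5 was 0.113 on the log2 scale, against 0.371 to 0.5004 in the other mdx/mTR libraries, so that in this library both genes were lowered by a similar proportion. Fxyd5 was highest in mdx/mTR 5, at 23.8 CPM against 9.55 to 14.8 CPM, and Prkca lowest there, at 94.3 CPM against 122 to 133 CPM. Ostm1 was highest in mdx/mTR 2, at 37.1 CPM against 30.5 to 32.9 CPM. In WT, Fgf11 was highest in library 2, at 12.95 CPM against 6.40 to 8.73 CPM, and Slc9a2 in library 3, at 65.8 CPM against 54.1 to 57.97 CPM.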

How the results depend on the processing

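Scn4a, Scn4b and Clcn1 kept their direction and their call under all 23 alternatives, with log2 fold changes of -0.77 to -0.51, -0.51 to -0.26 and -0.50 to -0.26. Leaving out single samples gave -0.77 to -0.64, -0.51 to -0.38 and -0.50 to -0.40. Atp1b1 was negative with median-of-ratios scaling (-0.00118), DESeq2 (-0.00122), limma-voom (-0.0237), the replicate block (-0.0245) and without mdx/mTR 2 and 5 together (-0.0267), and ran from -0.114 to 0.0899 without single samples. Atp1b2 passed with upper quartile scaling (0.23), library totals alone (0.35) and the myofibre offset (0.39), and ran from 0.12 to 0.24 without single samples, passing without mdx/mTR replicate 4 (edgeR adjusted p 0.0308). Fxyd1 passed with library totals alone (0.21), the myofibre offset (0.26) and without mdx/mTR 2 and 5 together (0.12, edgeR adjusted p 0.0497). Leaving out those 2 libraries together was chosen after seeing the data. With library totals alone the lists had 9 calls among sodium channel partners, 9 among Clcn1 regulators and 7 among pump genes, and with the myofibre offset 8 among partners and 8 among pump genes, since these scalings raise the median of all genes. At an adjusted p of 0.01 there were 3 calls among sodium channel relatives and 3 among Clcn1 regulators, the latter ranging from 3 to 5 without single samples, lowest without WT replicate 3.

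The groups share replicate numbers, and the labels name no pairing. Same-numbered samples had correlations of deviations from -0.137 to 0.319, over 0.1 in 2 of 6. Of the 6 numbers, 2 correlated best with their own number, which does not show a pairing and cannot exclude one. With the replicate block edgeR called 6420 genes in place of 6736. Paired exact permutation tests, whose smallest p is 0.0313, no longer called the ratio differences of 0.252 (Scn4b to Scn4a) and 0.261 (Clcn1 to Scn4a), each at an adjusted p of 0.0938. The size of these differences is the same with and without the block by construction.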

Other observations

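The list of carriers that move sodium or chloride alongside other ions also held regulators such as the kinases Oxsr1 and Wnk1. This list was the longest of the 6. Of its 21 tested genes 4 rose and 9 fell, against 25.0% and 23.4% of all genes, with a median log2 fold change of -0.12. Slc8a1, a sodium-calcium exchanger, fell from 41.6 ± 5.12 to 28.9 ± 0.870 CPM (-0.52 ± 0.07 SE, edgeR adjusted p 5.10e-05), and Slc9a2, a sodium-proton exchanger, from 57.8 ± 4.22 to 39.3 ± 5.32 CPM (-0.56 ± 0.08 SE, adjusted p 1.32e-04). Their groups did not overlap. The kinase pair that switches cation-chloride cotransporters was lower too: Oxsr1 fell from 152 ± 7.98 to 107 ± 7.70 CPM (-0.52, edgeR adjusted p 1.01e-05) and Wnk1, which activates it, from 559 ± 31.7 to 469 ± 25.5 CPM (-0.25, adjusted p 0.00194). Wnk1 did not pass with library totals alone (-0.10, edgeR adjusted p 0.0776), a scaling under which 7 genes of the list were higher and 6 lower, with a median of 0.04. With the myofibre offset 7 were higher and 3 lower, and Wnk1 did not pass (edgeR adjusted p 0.530). Slc8a3, another sodium-calcium exchanger gene, went the other way from Slc8a1. With TMM it rose from 90.5 ± 8.30 to 121 ± 28.7 CPM (0.42, edgeR adjusted p 0.0136), and its call held under all 5 scalings.

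In the authors' deposited table the log2 fold changes are -0.71 for Scn4a, -0.45 for Scn4b, -0.45 for Clcn1, -0.00466 for Atp1b1, 0.18 for Atp1b2 and 0.05 for Fxyd1. The first 3 have adjusted p-values of 4.6e-12, 9.73e-05 and 9.57e-06 there, and the others in the authors' deposited table are above 0.05.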
